A study of Mus musculus with 2 samples.

Results

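Fibroblast nuclei of the mouse right atrium were taken from single-nucleus RNA sequencing of Tbx5_p.G125R and control mice. The members were chosen by measured values: a nucleus belonged to the group when its counts of 11 fibroblast genes (COL1A1, COL1A2, COL3A1, PDGFRA, DCN, TCF21, BICC1, LAMA2, FBLN1, LMO3 and DCLK1) summed to at least 3, with at most 1 count of TTN and at most 1 count of TNNI3 and MYL4 together. This rule found 587 of 6408 nuclei, 217 of 2933 in the Tbx5_p.G125R library and 370 of 3475 in the control library. The Tbx5_p.G125R mice carried 1 allele with a glycine-to-arginine missense change in the T-box of Tbx5, made in the germline with CRISPR-Cas9, so that every cell type carried it, and the controls were wild type. All mice were adult. For each genotype 3 right atria were pooled, DAPI-positive nuclei were sorted, 7000 nuclei were loaded and 1 library was made, so that no replicate spread exists and no test between the genotypes was possible. Intervals below are 95% intervals that cover counting error only, and the variation between mice is unknown.

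Cardiac fibroblasts lie between the cardiomyocytes and build the extracellular matrix, the collagens, glycoproteins and proteoglycans that carry the force of each beat. Most of them descend from the epicardium through cells that express the transcription factor TCF21, and they are recognized by the receptor PDGFRA. In the atrium, excess matrix separates muscle bundles and is associated with atrial fibrillation, which makes these cells of interest in a mouse that models an arrhythmia variant of a cardiac transcription factor.

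The nuclei were shallow. Members had a median of 140 counts (from 54 to 1164) in the Tbx5_p.G125R library and of 153.5 counts (from 69 to 1217) in the control library, and all other nuclei had medians of 124 and 135. The libraries held 422811 counts in Tbx5_p.G125R nuclei and 560272 in control nuclei, and shared 0 barcodes. All 9330 genes of the tables carry human Ensembl identifiers, although the submitters' processing notes name the mouse build mm10. Genes whose symbol is also a mouse symbol held 93.8% of the members' counts, and symbols are given in their human form. Of the targeted gene TBX5, members had 0 counts in both libraries, which allows up to 0.925 counts per 10000 in Tbx5_p.G125R members and 0.485 in control members, and all other nuclei had 15 and 13 counts. A missense change need not alter the count, so TBX5 does not check the genotype labels. Levels are counts per 10000 counts of the group, with the 14 genes of the rule left out of the total.

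The rule was met by 7.40% (6.48% to 8.41%, exact Clopper-Pearson interval) of Tbx5_p.G125R nuclei and by 10.6% (9.64% to 11.7%) of control nuclei, a ratio of shares of 0.695. Depth differed in the same direction, and the share depended on depth. Among nuclei with fewer than 100 counts, 3.85% of the Tbx5_p.G125R and 5.03% of the control nuclei were members, with overlapping intervals. Among nuclei with 200 counts or more, 6.72% (4.67% to 9.31%) of the Tbx5_p.G125R and 12.7% (10.5% to 15.3%) of the control nuclei were members, which was the widest gap of the 4 depth bins. The share was lower in the Tbx5_p.G125R library in all 4 bins, and the intervals overlapped in the other 3. With every nucleus thinned to 80 counts before the rule, the mean shares over 10 draws were 3.54% in the Tbx5_p.G125R library and 4.22% in the control library. These shares rested on a mean of 87.7 of 2474 Tbx5_p.G125R and 131.1 of 3110 control nuclei. The ratio was 0.843. Its range of 0.725 to 0.933 is over the draws only and leaves out counting error, for which no interval was computed. This thinning left out 459 Tbx5_p.G125R and 365 control nuclei that were shallower. Both the sum of 3 and the sarcomere limits were applied to the thinned counts, so these members were not the same set of nuclei as above. The gap between the libraries was smaller in this set at equal depth, and whether it exceeded counting error was not tested. With 1 sorted pool per genotype, genotype and pool cannot be told apart.

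**Figure D1:**
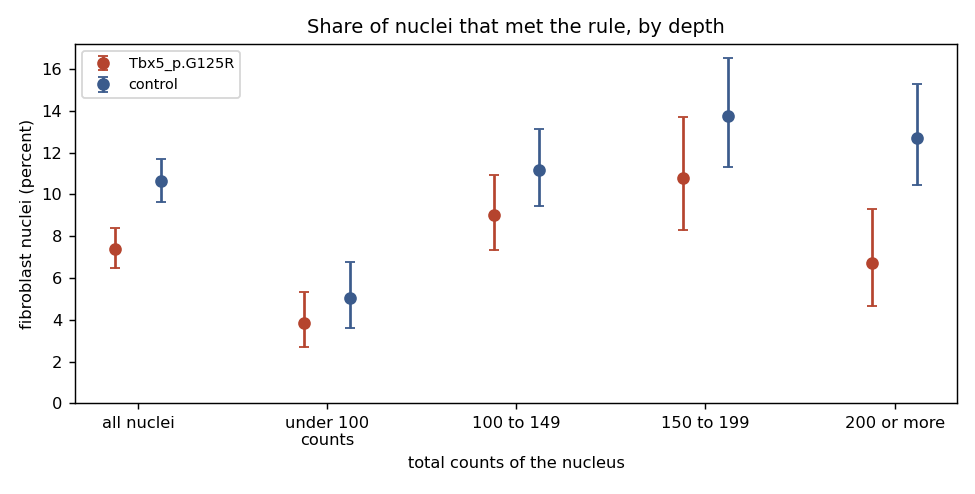
Percent of nuclei that met the fibroblast rule (y axis) in all nuclei and in 4 bins of total counts per nucleus (x axis), Tbx5_p.G125R left of control, with 95% Clopper-Pearson intervals as bars. The Tbx5_p.G125R point lies below the control point in every bin, and the gap is widest in nuclei with 200 counts or more (6.72% and 12.7%). Each bin counts all nuclei, including the cardiomyocyte nuclei that the rule bars.

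A sum of at least 3 was reached by 245 Tbx5_p.G125R and 463 control nuclei. Of these, 28 and 93 were left out by the limits on the sarcomere genes TTN (titin), TNNI3 (cardiac troponin I) and MYL4 (atrial myosin light chain). Single counts of these genes remained within the limits: 23 Tbx5_p.G125R and 18 control members had 1 count of TTN, and 61 and 102 had 1 count of TNNI3 or MYL4. Most members rested on few counts. The median sum was 3 in Tbx5_p.G125R and 4 in control members, over a median of 3 different marker genes in both, and 15 and 18 members met the rule through 1 gene alone. No doublet caller was run. A sum of at least 2 over endothelial markers was also found in 5 Tbx5_p.G125R and 22 control members, and over macrophage markers in 0 and 2.

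FBLN1, which encodes the matrix glycoprotein fibulin 1, supplied the most counts that made nuclei members. It was found in 71.0% of Tbx5_p.G125R and 72.7% of control members. Of the fibrillar collagen genes, COL1A1 was found in 48.8% of Tbx5_p.G125R and 56.5% of control members, and COL3A1 in 34.6% and 41.4%. The lineage gene TCF21 (31.3% and 34.1%) lay above the collagen gene COL1A2 (30.4% and 25.1%) in both libraries. BICC1, an RNA-binding protein (20.3% and 21.1%), and PDGFRA (24 of 217 and 48 of 370 members) were found less often than these. DCN, which encodes the proteoglycan decorin and is abundant in fibroblasts, was counted in 6.91% and 4.86% of members only, and LMO3, a LIM-domain gene, in 1.84% and 1.89%. These shares follow from the rule and describe the members without testing them. As background, FBLN1 had a count in 21.0% and COL1A1 in 6.41% of the 780 cardiomyocyte nuclei (at least 5 TTN counts), whose median depth of 255 counts exceeded that of the members. Per count, FBLN1 was at 10.6 and COL1A1 at 2.88 per 10000 in these cardiomyocyte nuclei.

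Each marker gene was also measured in the nuclei that the other 10 genes chose, so that its own counts did not select them. COL1A1 was then at 26.2 per 10000 in Tbx5_p.G125R and at 33.2 in control fibroblast nuclei, against 7.52 and 10.7 in the other nuclei of each library. FBLN1 was at 42.9 and 48.2, against 17.5 and 18.9 in other nuclei. The markers therefore accompanied each other in both libraries. The log2 ratio over other nuclei was above 0, interval included, for 9 of the 11 genes in Tbx5_p.G125R nuclei (DCN, 1.30, -0.34 to 2.49, and LMO3, with 1 count, were the exceptions) and for 9 of 11 in control nuclei (all but LAMA2, 0.65, -0.48 to 1.54, and LMO3, with 2 counts). The strongest ratio in the Tbx5_p.G125R library was 2.42 for DCLK1, a microtubule-binding kinase gene, on 6 counts. In the control library it was 2.47 (1.84 to 3.08) for PDGFRA, on 39 counts. The 11 genes were chosen with earlier results of these data known, and the other nuclei included those that the sarcomere limits removed. These ratios are therefore no independent check of the fibroblast label. Every one of the 11 genes was also counted outside the group.

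**Figure D2:**
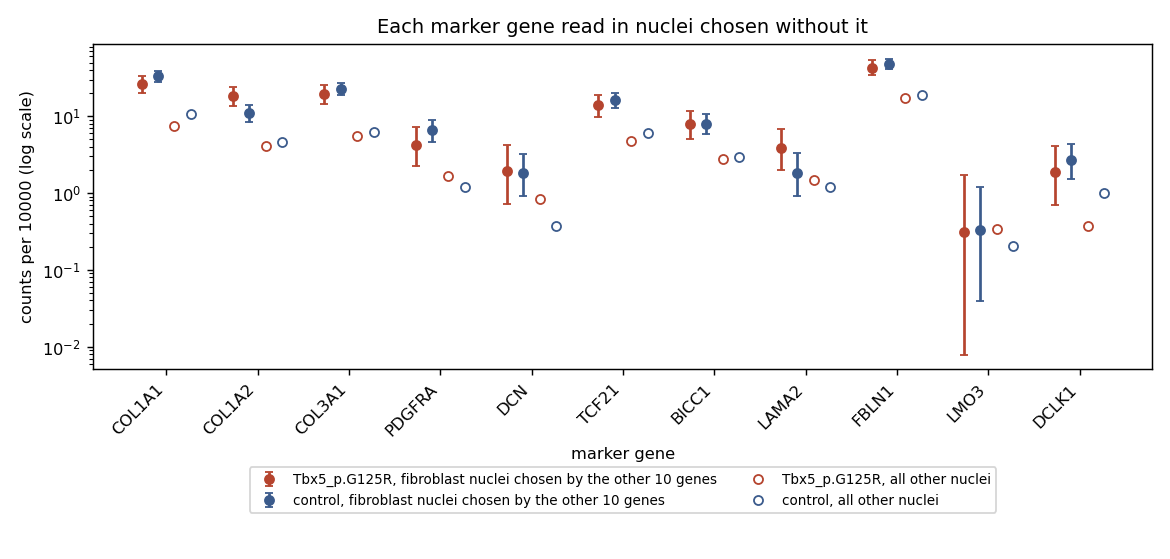
Level of each of the 11 marker genes (x axis) in counts per 10000 on a log axis (y axis), in fibroblast nuclei chosen by the other 10 genes (filled, with 95% Poisson intervals) and in all other nuclei (open), Tbx5_p.G125R left of control. For 9 of 11 genes in each library the filled point lies above the open one with a ratio whose interval is above 0, and LMO3 rests on 1 and 2 counts.

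Between the genotypes, the marker genes measured in this way went in both directions. COL1A2, the second chain of type I collagen, was at 18.4 per 10000 in Tbx5_p.G125R and at 10.9 in control fibroblast nuclei, a log2 ratio of 0.75 (0.18 to 1.32). COL1A1, which encodes the first chain of the same collagen, had a ratio of -0.34 (-0.80 to 0.10). The 2 genes of 1 protein thus lay on opposite sides of 0, and only the interval of COL1A2 excluded it. LAMA2, a laminin chain of basement membranes, had 12 counts in Tbx5_p.G125R and 11 in control nuclei (1.08, -0.22 to 2.41), an interval that included 0. COL3A1 (-0.22), TCF21 (-0.20), FBLN1 (-0.17), PDGFRA (-0.61) and DCLK1 (-0.43) had ratios below 0, and BICC1 (0.00), DCN (0.14) and LMO3 (0.19) at or above it, and all these intervals included 0 as well.

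The values just inside and outside the threshold were alike. A list of 33 further fibroblast genes, none of them in the rule, was read in all nuclei within the same sarcomere limits. It had 78.5 counts per 10000 in nuclei with a sum of 0, 106 with a sum of 1, 133 (124 to 142) in the 504 nuclei with a sum of 2 and 131 (121 to 143) in the 296 nuclei with a sum of 3. Nuclei with a sum of 6 or more had 156 (138 to 176). The marker sum thus graded nuclei rather than separating them, and nuclei with 1 or 2 marker counts outside the group carried part of the same expression. CCDC80, a secreted matrix protein, was at 4.99 per 10000 with a sum of 0 and at 26.1 with a sum of 6 or more. GSN, which encodes the actin-severing protein gelsolin, was at 2.70 and 9.87 in these bins of the Tbx5_p.G125R library and at 2.32 and 21.2 in those of the control library. EBF1, a transcription factor that fibroblasts share with B lymphocytes and mural cells, did not follow: it was at 30.5 with a sum of 0 and at 32.7 with a sum of 6 or more. Macrophage markers were at 17.8 in the lowest and 2.37 in the highest bin.

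**Figure D3:**
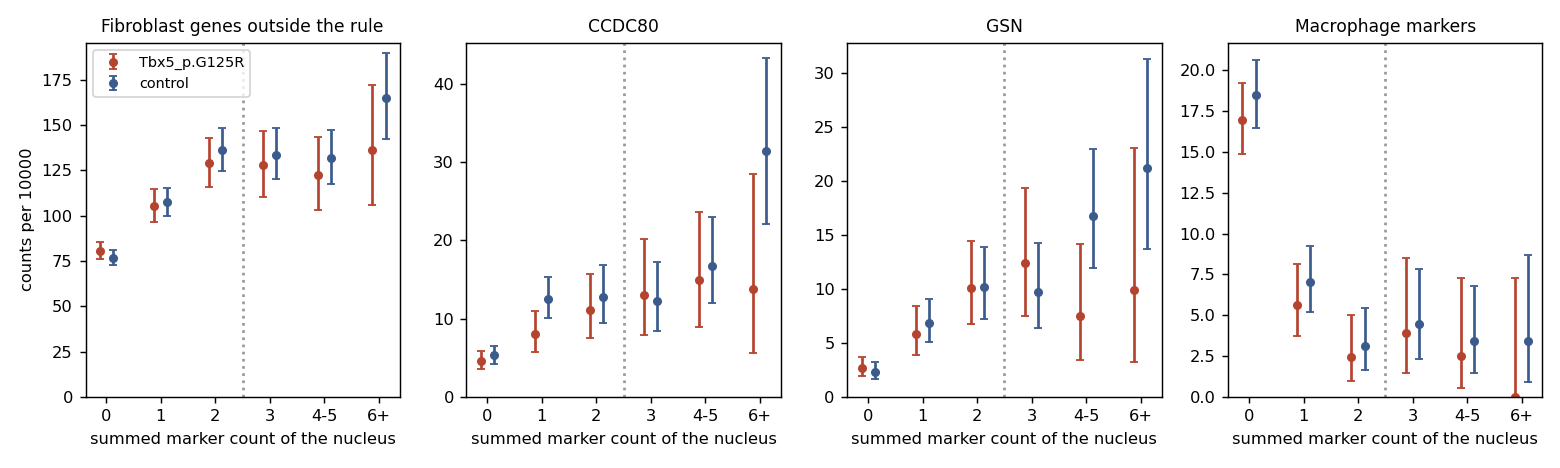
Counts per 10000 (y axes, each panel with its own scale) by the summed marker count of the nucleus (x axes) for 33 fibroblast genes outside the rule, CCDC80, GSN and macrophage markers, Tbx5_p.G125R left of control, with 95% Poisson intervals. The dotted line is the threshold of the rule; nuclei with sums of 2 and 3 lie at the same height for the fibroblast genes (133 and 131 per 10000 over both libraries).

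Genes outside the rule were ranked by their level in members relative to all other nuclei. These ratios are a description, since the members were chosen on the same counts. Of 405 genes with at least 50 counts in members, 29 (7.16%) were at least 2-fold higher than in all other nuclei, and 18 were so against other nuclei within the same sarcomere limits. The top of the list among genes with at least 100 counts was TEX26-AS1, a transcript with a human antisense symbol and no mouse counterpart in the annotation used, at 12.4 per 10000 in members and 3.15 in other nuclei (log2 1.98). What mouse RNA was counted under this symbol is not known. GSN (Gsn, chromosome 2, 35256359 to 35307902 in GRCm38.p6, the assembly on which mm10 is based) was at 13.1 and 3.75 (1.80), and EBF2, a transcription factor of mesenchymal cells, at 13.6 and 4.12 (1.72).

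Matrix genes among these 15 were CCDC80 (16.3 per 10000 in members and 5.80 in other nuclei), the metalloprotease ADAMTS10, which acts on microfibrils (1.41), the laminin chain LAMC1 (1.38) and the protease inhibitor TIMP2 (1.32). LRP1, an endocytic receptor that clears matrix proteases (1.28), and PMEPA1, an inhibitor of TGF-beta signaling (1.38), stood beside them. TIMP2 was uneven, with 17 of its 163 counts in 1 nucleus. The other genes were FOXP2 (1.57) and TRPS1 (1.12), both transcription factors, PCDH9, a protocadherin (1.51), S100A6, a calcium-binding protein (1.51), PMP22, a membrane protein best known from myelin (1.51), and CDK8, a kinase of the Mediator complex (1.24). All 15 lay above 1 in log2 ratio in the Tbx5_p.G125R library alone (1.08 to 2.07) and in the control library alone (1.13 to 1.97). They were ranked on these same libraries, so this is no independent check. Against other nuclei within the same sarcomere limits, PCDH9 (0.93), LAMC1 (0.85), LRP1 (0.80), CDK8 (0.78), ADAMTS10 (0.77) and TRPS1 (0.53) fell below 1. The rest of the 15 stayed above 1.

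Against single classes the picture was less even. Endothelial nuclei (251, with a sum of at least 2 over endothelial markers) had intermediate levels, such as 6.94 per 10000 of LAMC1 against 10.9 in members. Cardiomyocyte nuclei were low for genes such as EBF2 (0.341) and ADAMTS10 (0.390), and macrophage nuclei were lower still for others, such as FOXP2, at 0.447 in macrophage and 1.46 in cardiomyocyte nuclei. TRPS1 was no mark of fibroblasts: it was at 23.9 in members and at 29.0 in the 148 macrophage nuclei, with a log2 ratio of -0.29 (-0.69 to 0.14). PCOLCE, an enhancer of procollagen processing with 85 counts, had a ratio of 1.82 over other nuclei.

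**Figure D4:**
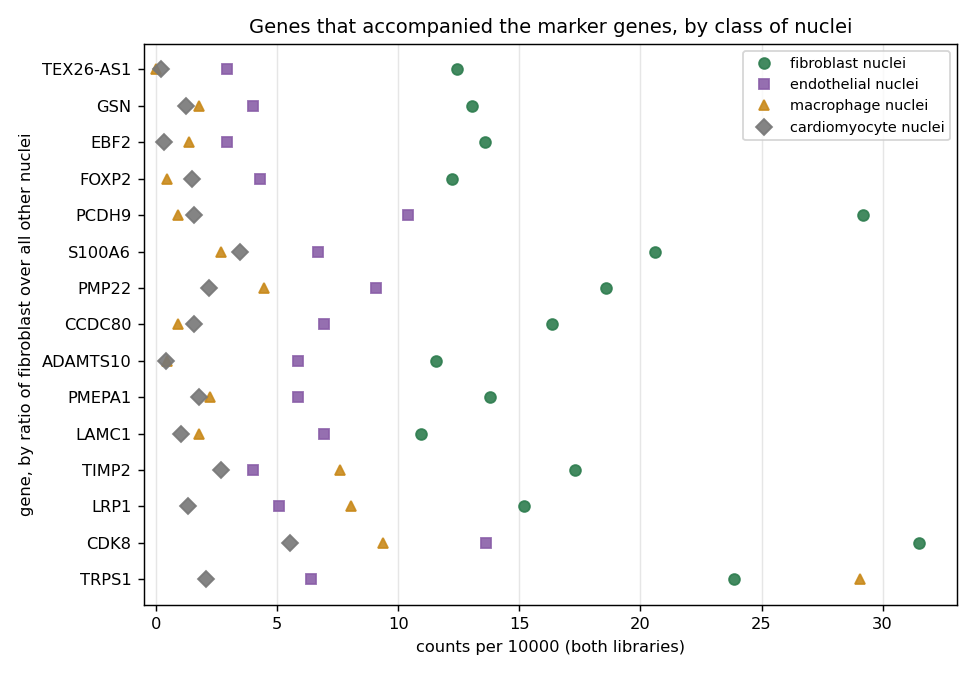
Counts per 10000 over both libraries (x axis) of the 15 genes outside the rule with the highest ratio of fibroblast over all other nuclei (y axis, from the highest ratio down), in fibroblast, endothelial, macrophage and cardiomyocyte nuclei. Fibroblast nuclei are highest for 14 of the 15 genes, endothelial nuclei are mostly in between, and TRPS1 is higher in macrophage nuclei (29.0 against 23.9).

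The fibroblast list outside the rule was at 135 per 10000 in members and 69.1 in other nuclei. Of the other classes endothelial nuclei were nearest, at 95.5, against 32.2 in macrophage and 23.5 in cardiomyocyte nuclei, and EBF1 was higher in endothelial nuclei (39.2) than in members (29.6). Of the 33 genes 24 were in the tables, 11 of the 33 had no count in any member, and 8 had at least 50 counts. Collagen genes outside the rule were at 12.1 in members and 3.81 in other nuclei (log2 1.67, 1.35 to 1.98), led by COL5A2 and COL5A1, the chains of type V collagen. The list of the activated, contractile fibroblast was at 57.4 in members and 72.6 in other nuclei. Its members did not go one way: the tropomyosin gene TPM1, which is also a cardiomyocyte marker, was at 12.6 in members and 39.9 in other nuclei, S100A6 was at 20.6 and 7.25, and VIM, which encodes the intermediate filament vimentin, at 10.3 and 7.52. Of the 3 genes of this list with 50 or more counts, 2 were above other nuclei. Complement and cytokine genes gave 23 counts in Tbx5_p.G125R and 44 in control members, with 12 of the 30 genes of the list in the tables and 22 of the 30 without a count in members, those outside the tables included. Of 15 mitochondrially encoded genes only 1 was in the tables, with 0 counts in members.

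Marker genes of other cell types were counted in members. The 21 cardiomyocyte markers were at 103 per 10000 in members, against 357 in all other nuclei and 750 in cardiomyocyte nuclei. The sarcomere limits fix part of this contrast, since all other nuclei include the cardiomyocyte nuclei. Within the same limits these markers were at 130 in nuclei with a marker sum of 0, 135 with 1 and 102 with 2. With a sum of 3 they were at 109, and with 6 or more at 99.7. They were at 101 in Tbx5_p.G125R and 104 in control members (log2 -0.04, -0.24 to 0.15), with 18 of the 21 genes in the tables and 6 of the 21 without a count. Endothelial markers were at 18.8 in Tbx5_p.G125R and 19.4 in control members, chiefly MECOM, a transcription factor gene with 121 counts. The endothelial receptor FLT1 had 1 count in each library. Over both libraries the endothelial list was at 19.2 in members and 18.9 in all other nuclei, and MECOM at 12.8 and 8.05. Whether the members themselves expressed MECOM was not tested. Of the 19 endothelial genes 13 were in the tables, and 11 of the 19 had no count in members. Macrophage markers had 9 and 24 counts, with the scavenger receptor MRC1 at 1 and 0, 11 of the 20 genes in the tables and 15 of the 20 without a count in members. Mural markers were at 16.6 per 10000 in members and 6.30 in all other nuclei (log2 1.40, 1.13 to 1.65). They had 57 and 99 counts, of which EBF2, a gene of both the mural and the fibroblast list, gave 47 and 81. The part of other cell types' markers in the ratios below was not tested beyond the alternatives given with the processing.

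Genotype ratios were computed for the 405 genes with at least 50 counts in members. The median log2 ratio was 0.03, with 223 genes above 0 and 182 below. At least 1.5-fold higher in Tbx5_p.G125R members were 24 genes (5.93%), and at least 1.5-fold lower 21 genes (5.19%). These shares are the background against which lists are read. With 1 library a genotype, a ratio compares these 2 libraries.

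The highest ratio among genes with at least 100 counts belonged to ERRFI1 (Errfi1, chromosome 4 in GRCm38.p6), an inhibitor of the EGF receptor that is also induced by glucocorticoids. It had 117 counts in 63 Tbx5_p.G125R members and 107 counts in 71 control members, 36.1 and 17.3 per 10000, a log2 ratio of 1.06 (0.67 to 1.45). All other nuclei gave 1.10 (0.91 to 1.30), and cardiomyocyte nuclei 1.03 (0.16 to 1.99). AMD1, an enzyme of polyamine synthesis, was at 33.9 and 20.9 per 10000 (0.70, 0.32 to 1.08) and likewise had 0.62 (0.52 to 0.71) in all other nuclei. In macrophage nuclei, where counts were few, ERRFI1 had 2 and 8 counts (-1.09, -4.59 to 1.0) and AMD1 14 and 22 (0.05, -1.05 to 1.06).

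For other genes with high ratios the remaining nuclei lay nearer to 0 or on its other side, a difference that was not tested. HNRNPH1, a splicing factor, had 63 counts in Tbx5_p.G125R and 71 in control members (0.76, 0.24 to 1.27), and 0.08 (-0.10 to 0.25) in all other nuclei. TCF4, a basic helix-loop-helix factor, had 105 and 135 counts (0.57, 0.19 to 0.95) and -0.05 in other nuclei. OGT, which attaches N-acetylglucosamine to nuclear proteins, had 124 and 164 counts (0.53, 0.18 to 0.87) and 0.11 elsewhere. PCDH9, a gene of the fibroblast profile, had 115 and 160 counts (0.46, 0.10 to 0.81). The intervals of BCLAF1 (0.56) and THOC2 (0.43), both of RNA processing, included 0. ZNF90, a zinc finger gene, had 59 and 69 counts (0.71, 0.18 to 1.23), with -0.28 in other nuclei. The human symbol ZNF90 has no mouse counterpart in the annotation used. KLF13, a Kruppel-like factor, had 53 and 64 counts (0.66, 0.10 to 1.21), but 8 of the 53 lay in 1 nucleus, and without the deepest member of each library the ratio was 0.50 (-0.10 to 1.07).

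The lowest ratio among genes with at least 100 counts belonged to HIVEP2, a zinc finger transcription factor. It had 27 counts in Tbx5_p.G125R and 97 in control members, 8.32 and 15.7 per 10000, a log2 ratio of -0.90 (-1.59 to -0.29), against 0.07 (-0.11 to 0.26) in all other nuclei pooled. By class, macrophage nuclei had 6 and 32 counts of HIVEP2 (-1.64, -3.28 to -0.46) and cardiomyocyte nuclei 95 and 77 (0.44, -0.01 to 0.90). In nuclei with a marker sum of at least 4 the ratio of HIVEP2 was -0.55 (-1.49 to 0.26). FILIP1L, a cytoskeletal regulator, had 30 and 107 counts (-0.89, -1.54 to -0.31), with 18 of the 107 in 1 control nucleus. ACTB, which encodes beta-actin, was at 11.7 per 10000 in Tbx5_p.G125R and 20.2 in control members (-0.77, -1.35 to -0.25) and was lower in all other nuclei too (-0.51, -0.67 to -0.35). MBNL1, a regulator of alternative splicing, had 58 and 160 counts (-0.53, -0.99 to -0.09). PURA, a nucleic acid-binding protein, had 60 and 163 (-0.50, -0.96 to -0.08). The intervals of the amino acid transporter SLC38A2 (-0.60), the splicing genes LUC7L3 (-0.57) and SRSF10 (-0.53), GSN (-0.50) and the transcription factor MEF2C (-0.46) included 0.

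**Figure D5:**
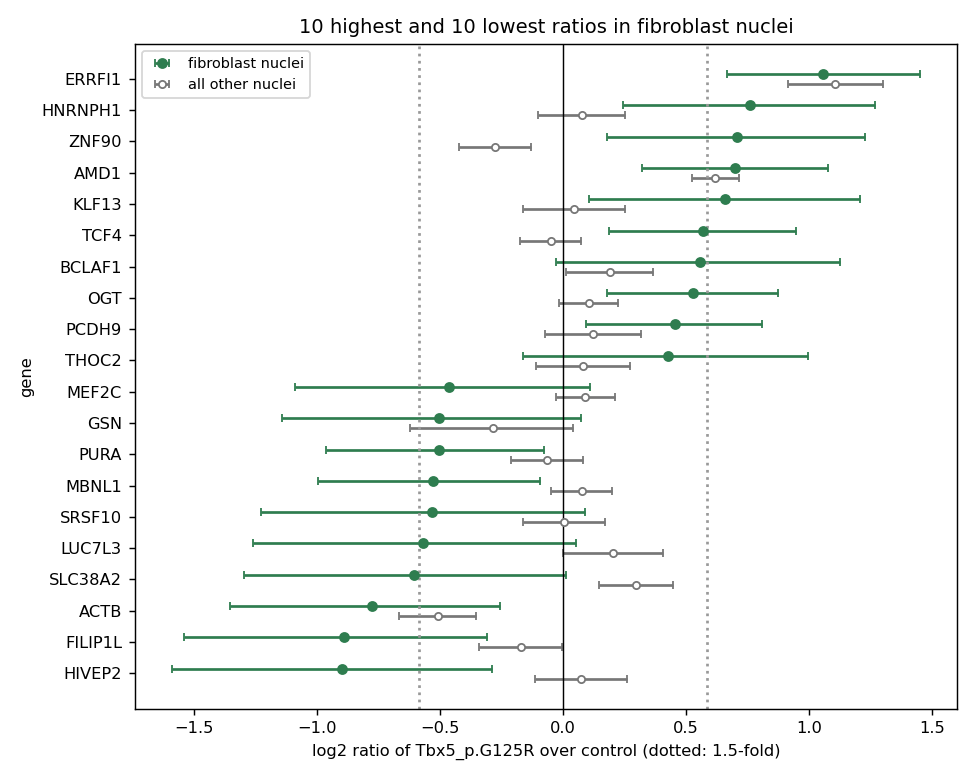
Log2 ratio of Tbx5_p.G125R over control (x axis) of the 10 highest and 10 lowest genes with at least 100 counts in members (y axis), in fibroblast nuclei (filled) and in all other nuclei (open), with 95% conditional Poisson intervals. Dotted lines mark 1.5-fold, and ERRFI1, AMD1 and ACTB lie on the same side in both groups of nuclei, while HIVEP2 is at -0.90 in fibroblast and at 0.07 in other nuclei.

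The lists of matrix genes lay on both sides of 0. Collagen genes outside the rule had 25 counts in Tbx5_p.G125R and 89 in control members, a log2 ratio of the sums of -0.88 (-1.60 to -0.25), and none reached 50 counts. COL5A2 had 11 and 34 counts (-0.66, -1.83 to 0.32), COL5A1 2 and 21 (-2.17, -5.60 to -0.43) and COL16A1 3 and 14 (-1.12, -3.73 to 0.55). This sum rested on the threshold: with a marker sum of at least 2 its ratio was -0.28 (-0.78 to 0.18), with 57 and 114 counts, and COL5A2 was at 0.053. The type I and III chains of the rule gave no such joint shift. Glycoproteins and proteoglycans had 163 and 300 counts (0.05, -0.23 to 0.33), among them VCAN, the large proteoglycan versican, with 9 and 30 (-0.75, -2.07 to 0.30) and FBN1, the microfibril protein fibrillin 1, with 20 and 24 (0.67, -0.27 to 1.58). Proteases, inhibitors and cross-linking enzymes had 248 and 431 counts (0.13, -0.10 to 0.36). The fibroblast list outside the rule had 412 and 858 counts (-0.13, -0.30 to 0.04), with 3 of its 8 genes of 50 or more counts above 0 and none past 1.5-fold.

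Signaling genes differed one by one. SMAD6 and SMAD7 encode the inhibitory SMAD proteins, of which SMAD6 acts mainly on the BMP branch and SMAD7 on both branches of the pathway. SMAD6 had 20 counts in Tbx5_p.G125R and 69 in control members (-0.83, -1.65 to -0.12). SMAD7 had 41 and 45 (0.80, 0.15 to 1.44). Both intervals excluded 0, on opposite sides, while the 42 genes of the TGF-beta and BMP list together had 251 and 520 counts (-0.12, -0.34 to 0.10). With a marker sum of at least 2, SMAD6 was at -0.39 (-0.96 to 0.13) and SMAD7 at 0.64 (0.18 to 1.10). In all other nuclei SMAD6 was at -0.10 and SMAD7 at -0.24 (-0.47 to -0.02). Of the 4 genes of this list with 50 or more counts, 1 was past 1.5-fold in each direction. The shares over all 405 genes were 5.93% higher and 5.19% lower, and 4 genes are too few to set against them. CTGF, a matrix-associated target of TGF-beta and mechanical signals, had 5 counts in 5 Tbx5_p.G125R and 30 counts in 23 control members (-1.54, -3.38 to -0.27), and 0.51 (0.20 to 0.82) in all other nuclei. With a marker sum of at least 2 the ratio of CTGF was -0.69 (-1.64 to 0.14). IGFBP5, a carrier of insulin-like growth factors, had 24 and 49 counts (-0.08), with 11 and 19 of them in 1 nucleus of each library. NTN1, which encodes the guidance cue netrin 1, had 11 and 44 counts (-1.02, -2.17 to -0.09), against -0.51 in other nuclei.

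Among glucocorticoid-responsive genes the sum was 261 counts in Tbx5_p.G125R and 340 in control members (0.55, 0.31 to 0.79), and ERRFI1 made up 117 and 107 of them. ZBTB16, a zinc finger repressor, was at 0.60 (-0.13 to 1.32) and KLF9, a Kruppel-like factor, at -0.44 (-1.31 to 0.32). Of the 3 genes of this list with 50 or more counts, 2 (ERRFI1 and ZBTB16) were at least 1.5-fold higher and 0 at least 1.5-fold lower. The shares over all 405 genes were 5.93% and 5.19%, and 3 genes are too few to set against them. The ratio of this list without ERRFI1 was not computed. Immediate-early and stress genes had 172 and 298 counts (0.14), with JUN at -0.34 and the chaperone HSPA8 at 20 and 14 counts (1.43, 0.39 to 2.54). The Wnt list had 253 and 405 counts (0.25, 0.02 to 0.48), which include TCF4 with 105 and 135 (0.57, 0.19 to 0.95). The human symbol TCF4 denotes the basic helix-loop-helix factor and is also an old name of TCF7L2, the Wnt effector, which was at 0.00. The ratio of this list without TCF4 was not computed, so the summed ratio is no result about Wnt genes.

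Genes of RNA processing were the group with the most genes of 50 or more counts. Of 24, 19 were above 0, 2 were at least 1.5-fold higher and none at least 1.5-fold lower, with a median of 0.17. Over all 405 genes 223 were above 0, 5.93% were at least 1.5-fold higher and 5.19% at least 1.5-fold lower, and the median was 0.03. With 2 of 24 genes, the share past 1.5-fold higher was near that background. DDX5, an RNA helicase, had 1133 and 1933 counts (0.16, 0.05 to 0.27), below the 0.34 (0.31 to 0.38) of all other nuclei. MALAT1, a long noncoding RNA of nuclear speckles, had 166 and 313 counts (0.02, -0.27 to 0.29). Chromatin genes (12 with 50 or more counts, median 0.04), cardiac transcription factors (17, median 0.01) and ribosomal protein genes (9, median 0.10) lay near the median of all genes. Of the transcription factors, RUNX1T1 was the gene past 1.5-fold, with 29 and 34 counts (0.70, -0.07 to 1.46). ACACA, the first enzyme of fatty acid synthesis, had 13 and 18 counts (0.48, -0.69 to 1.57). Lists of lipid metabolism, synaptic adhesion, complement and cyclic nucleotide genes held no gene with 50 counts.

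A few members carried epicardial RNA, as did a few other nuclei. Markers of the epicardium, the mesothelial cover of the heart, had 46 counts in Tbx5_p.G125R and 42 in control members, a log2 ratio of 1.06 (0.43 to 1.70). Of these counts 37 lay in 9 Tbx5_p.G125R members and 28 in 7 control members that had 2 or more such counts, 4.15% (1.91% to 7.73%) and 1.89% (0.764% to 3.86%) of members. Among all other nuclei, 1.47% in the Tbx5_p.G125R and 2.03% in the control library had 2 or more such counts. Over both libraries these markers were at 9.34 per 10000 in members, 7.07 in all other nuclei and 9.60 in endothelial nuclei. The deepest nucleus of each library was among the members with 2 or more epicardial counts. In the Tbx5_p.G125R library it had 1164 counts, a marker sum of 17 and 16 epicardial counts, and in the control library 1217 counts, a sum of 5 and 10 epicardial counts. Without the members that had 2 or more epicardial counts, the ratio of the remaining 9 and 14 counts was 0.39 (-1.03 to 1.67). GPM6A, a neuronal and mesothelial membrane protein, supplied 16 and 23 counts and BNC2, a zinc finger gene of mesothelium and fibroblasts, 14 and 8.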

How the data were processed

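Counts per nucleus and gene were used as deposited by the authors in 1 table per library, with nuclei filtered by them for at least 1000 reads. No nucleus was removed here, although 1 nucleus per library had 1000 counts or more. No source used here names the aligner or counter. The authors' cluster labels, and their table of comparisons between genotypes (p-values and fold changes per cluster), were not used. The members and the gene lists were chosen with earlier results of these data known. Log2 ratios of Tbx5_p.G125R over control took 0.5 added to each summed count, totals without the 14 rule genes, and exact conditional Poisson intervals. The intervals were tried only on simulated Poisson counts. That simulation held no clustering of counts within nuclei, so it does not show that the intervals cover such clustering. Named were the 11 marker genes, the 15 highest profile genes and the 10 highest and 10 lowest genotype ratios with at least 100 counts, the 4 most counted genes of each of 30 lists, list genes of 50 or more counts past 1.5-fold, and TBX5, ERRFI1, ACACA, VCAN, FBN1, COL5A2, IGFBP5, CTGF, DDX5, MALAT1 and XIST (not among the genes of the count tables); not every one is described. HSPA8, COL5A1, COL16A1 and BNC2 fall under the list part of this rule. Comparison classes were cardiomyocyte (at least 5 TTN counts), endothelial and macrophage nuclei (at least 2 marker counts within the same sarcomere limits); 29 nuclei of 2 or more classes were kept out of these classes. Alternatives changed the minimum sum, the sarcomere limits, depth, scaling, the gene minimum and the added count. Gene positions and mouse symbols came from RefSeq (GRCm38.p6). Python 3.11.15, numpy 2.4.6, scipy 1.17.1, pandas 2.3.3 and matplotlib 3.10.9 were used.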

Additional observations from a re-analysis of the deposited data

Results flagged for a closer look

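For 4 of the named genes, the log2 ratio of Tbx5_p.G125R over control lay on opposite sides of 0 in fibroblast nuclei and another class. Both counting intervals lay away from 0. The difference itself was not tested, since each class comes from the same 2 libraries. MBNL1, ZNF90 and KLF13 were named because their fibroblast ratios were among the highest or lowest. Genes that were not named are left out, so 4 is not a total over all genes. No background share was computed for it. MBNL1 was at -0.53 in fibroblast nuclei (58 and 160 counts) and at 0.33 (0.09 to 0.58) in cardiomyocyte nuclei (295 and 258 counts). ZNF90 was at 0.71 in fibroblast nuclei and at -0.83 (-1.22 to -0.46) in cardiomyocyte nuclei, with 90 and 177 counts. CTGF was at -1.54 in fibroblast nuclei and at 0.71 (0.15 to 1.29) in cardiomyocyte nuclei. KLF13 was at 0.66 in fibroblast nuclei, at -1.11 (-2.30 to -0.10) in endothelial nuclei (11 and 28 counts) and at -1.51 (-3.65 to -0.07) in macrophage nuclei (4 and 20 counts). Without the deepest member of each library, KLF13 was at 0.50 (-0.10 to 1.07) in fibroblast nuclei.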

How the results depend on the processing

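No paired analysis was possible because each genotype had 1 library, which also left no replicate to leave out. The ratio of shares stayed between 0.648 and 0.822 with sums of 2 or 4, sarcomere genes at 0, nuclei of at least 100 counts, a denominator of nuclei within the sarcomere limits, or without COL1A1 or FBLN1 in the sum, and was 0.843 after thinning. The denominator, the sums without COL1A1 or FBLN1, the depth bins, and the fits without the deepest members or the members with epicardial counts were chosen after seeing the data. Genes at least 1.5-fold lower numbered 33 of 719 with a sum of 2. With a sum of 4, 15 of 186 genes were higher and 9 lower. In members without any count of other cell types' markers (37 and 75 nuclei) 3 of 20 genes were higher and 2 lower, and with a gene minimum of 20 counts 100 of 1002 were higher and 126 lower. Genes 2-fold above other nuclei numbered 18 within the sarcomere limits. Directions reversed for COL5A2 with a sum of 2 (0.053) and, in the members without other markers, for HIVEP2 (0.13), FBN1 (-0.59) and ZBTB16 (-0.079). The cause was not tested. Of the planned values for single genes, lists and per-library shares, 395 stayed within the counting interval of the value reported and 21 left it without a reversal, and of the added ones 89 and 7. Depth, 32442 counts in Tbx5_p.G125R and 61809 in control members, limits the ratios: NTN1, with 55 counts, had an interval of -2.17 to -0.09.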
